A study of Mus musculus with 4 samples.

Results

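CTCF binding was examined at 6 windows of the mouse genome that hold imprinted genes with known CTCF sites, in WEHI-231, a B cell lymphoma line of (BALB/c x NZB)F1 origin. The windows were drawn for H19 and Igf2, Kcnq1 and Kcnq1ot1, Grb10, Rasgrf1, Peg13, and Dlk1 and Meg3, 9 genes in all, and the position of these genes in mm9 was not checked against an annotation. The assay was ChIP-seq (sequencing of chromatin precipitated with a commercial CTCF antibody) in 4 libraries, 2 from cells in which TFII-I was stably knocked down and 2 from control cells of the same line. The design text names the knockdown as shTFII-I, a short hairpin, and the labels do not say what the control cells carry or whether either population is a single clone. TFII-I is a transcription factor and the product of Gtf2i, and the study asks whether it directs CTCF to gene promoters. Members are merged peak regions: peaks of the 4 lists that overlap by at least 1 bp were joined, and a region belongs to a window when its centre lies in it. This gave 27 regions of 29116 in the whole series. Replicates 1 and 2 of each group are not said to be separate cultures, so their spread may be technical, and the degree of the TFII-I knockdown was not analysed here.

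CTCF, a zinc finger protein, binds insulators, and methylation of its site can prevent binding. At imprinted loci this makes CTCF a reader of parental origin: at H19 and Igf2 it is known to bind the unmethylated maternal control region and to keep Igf2 from its enhancers, while the methylated paternal copy is not bound. CTCF binding is also known at the differentially methylated regions of Rasgrf1, Kcnq1ot1, Grb10, Peg13 and Meg3. A peak list does not tell the parental copies apart, and no allele was resolved here. No mm9 gene annotation or genome was used here, so a region is given by its mm9 position and window and not assigned to an exon, intron or differentially methylated region.

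The Dlk1 and Meg3 window is the one in which no library had a peak, and the promoters of these genes are shown because the window named for them has no call; whether the promoters lie inside it in mm9 was not checked. Dlk1 encodes a paternally expressed membrane protein of the Notch ligand family, and Meg3 is a maternally expressed long non-coding RNA. The sequences are RefSeq promoters of the build GRCm38.p6, plus strand, 250 bases before and 50 bases after each annotated start, with the bases after the start in capitals. They lie at chr12:109452573-109452872 for Dlk1, and at chr12:109540746-109541045 and chr12:109545148-109545447 for the starts 1 and 2 of Meg3.
Dlk1: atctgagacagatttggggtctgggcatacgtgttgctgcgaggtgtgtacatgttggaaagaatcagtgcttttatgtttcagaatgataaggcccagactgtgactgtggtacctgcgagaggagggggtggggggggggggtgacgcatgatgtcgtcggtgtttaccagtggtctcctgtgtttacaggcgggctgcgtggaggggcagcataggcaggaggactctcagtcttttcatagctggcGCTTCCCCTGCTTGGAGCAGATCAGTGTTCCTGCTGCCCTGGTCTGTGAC
Meg3, start 1: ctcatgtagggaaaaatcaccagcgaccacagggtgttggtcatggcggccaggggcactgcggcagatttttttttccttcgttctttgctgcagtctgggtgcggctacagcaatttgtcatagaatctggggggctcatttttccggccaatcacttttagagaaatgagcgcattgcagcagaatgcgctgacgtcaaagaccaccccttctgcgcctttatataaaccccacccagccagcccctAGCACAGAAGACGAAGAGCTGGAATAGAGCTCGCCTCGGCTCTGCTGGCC
Meg3, start 2: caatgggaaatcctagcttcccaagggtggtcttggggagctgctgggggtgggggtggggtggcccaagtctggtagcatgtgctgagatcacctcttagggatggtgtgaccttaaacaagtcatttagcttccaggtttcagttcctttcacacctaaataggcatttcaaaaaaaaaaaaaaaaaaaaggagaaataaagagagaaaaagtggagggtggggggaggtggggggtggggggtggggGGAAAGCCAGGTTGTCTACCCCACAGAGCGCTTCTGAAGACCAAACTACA
Promoter entries were matched for 6 of the 9 genes, with 11 promoters in all: 4 of Igf2, 2 each of Grb10 and Meg3, and 1 each of Dlk1, Kcnq1ot1 and Rasgrf1. H19, Kcnq1 and Peg13 had no entry. The letters AGGGGGC, a stretch of the CTCF core motif, were searched on both strands and stood in 3 of these 11 promoters, 2 of them at Igf2 and 1 at Rasgrf1, against 10.6% of all 32851 promoters of the table. They stood in none of the Dlk1 and Meg3 promoters printed here. These are letter matches near a start and were not read as binding sites.

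The lists as a whole were shorter in the knockdown, with 19076 and 15309 peaks in knockdown replicates 1 and 2, against 24467 and 23873 in control replicates 1 and 2. Each peak carries the authors' score, which starts at 50 and grows with the evidence for the peak and with sequencing depth. The sources used here give no depth. Median scores were 85.5 and 79.1 in the knockdown lists and 111 and 107 in the control lists. Scores were therefore set beside percentile ranks within each list, in which 100 is the highest peak of that list. A rank is relative to the other peaks of its list and gives no amount of CTCF. With 2 libraries against 2, the smallest two-sided exact permutation p is 0.333, so no single region could pass 0.05, and regions are described by whether the groups overlap.

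**Figure D1:**
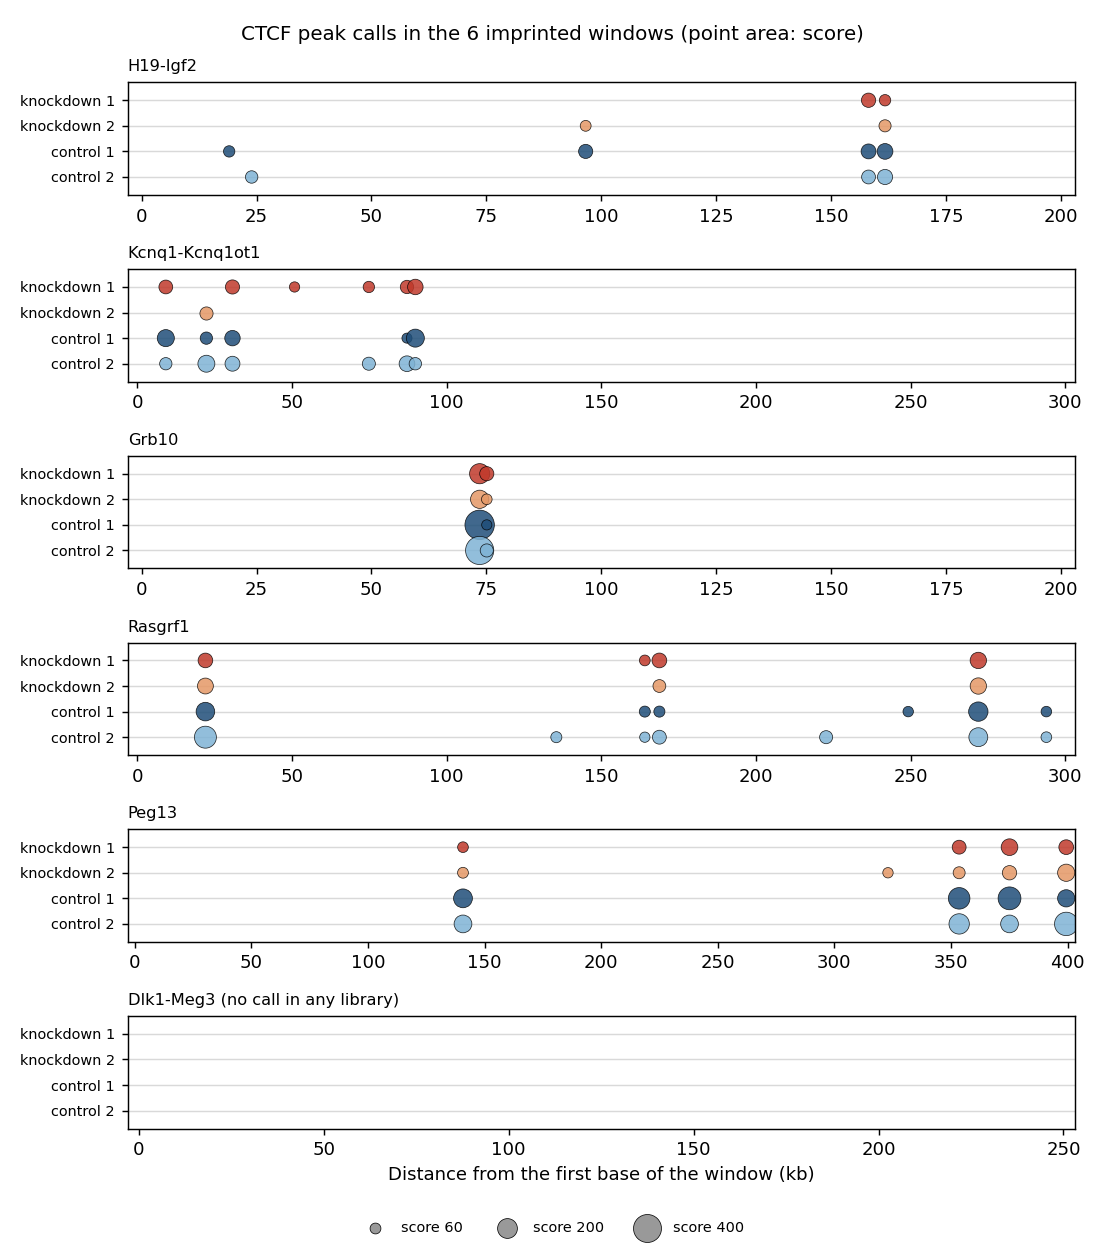
Peak calls in each library along the 6 windows. The x axis is the distance in kb from the first base of the window, each row is a library, and the area of a point is the score; calls sit in 5 windows, the Dlk1-Meg3 window is empty, and no call lies in the right part of the Kcnq1-Kcnq1ot1 window.

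The windows differed in how many regions they held and in how many of these every library called. Rasgrf1 held 8 regions, Kcnq1 and Kcnq1ot1 held 7, H19 and Igf2 held 5, Peg13 held 5, Grb10 held 2, and Dlk1 and Meg3 held 0. Called in all 4 libraries were 4 regions at Peg13, 3 at Rasgrf1, 2 at Grb10, 1 at H19 and Igf2, and 0 at Kcnq1 and Kcnq1ot1. These 10 of 27 regions make 37.0%, and over the whole series 40.3% of regions were called in all 4 libraries. Of the 27, 7 (25.9%) were called in a single library, where the series has 20.0%. Regions called in knockdown libraries alone numbered 2 (7.41%; 5.84% in the series), each in 1 library, and those in control libraries alone numbered 6 (22.2%; 25.2% in the series).

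Of the 18 window regions called in both controls, 16 had a call in knockdown replicate 1 and 11 in knockdown replicate 2. These shares of 88.9% and 61.1% compare with 77.6% and 64.1% over the series, and with averages of 77.5% and 65.7% for regions in the same deciles of control rank. A single region of the 18, at Rasgrf1, had no call in either knockdown library (5.56%, with 14.8% in the series). No region was called in both knockdown libraries and in no control, a class that takes up 1.14% of regions with 2 knockdown calls across the series. The 18 differed in control strength: the 10 with both knockdown calls had a median control percentile rank of 85.1 (19.6 to 98.9), the 7 with 1 knockdown call a median of 49.1 (8.97 to 55.6), and the region with none stood at 8.80.

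Knockdown replicates 1 and 2 called 18 and 13 of the 27 regions, and control replicates 1 and 2 called 21 and 22. The mean was 15.5 ± 3.54 in the knockdown and 21.5 ± 0.707 in the control (SD, n = 2 each; exact permutation p = 0.333, two-sided). Both knockdown libraries thus called fewer regions than both controls, with a ratio of means of 72.1%. Across the whole series the same ratio was 71.0%. The order depended on list length: when each list was limited to its 15309 highest scores, the knockdown libraries called 15 and 13 window regions and the controls 13 each. In those shorter lists Grb10 had 2 regions in each knockdown library and 1 in each control, while Peg13 had 3 and 5 in the knockdown libraries and 4 in each control.

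**Figure D2:**
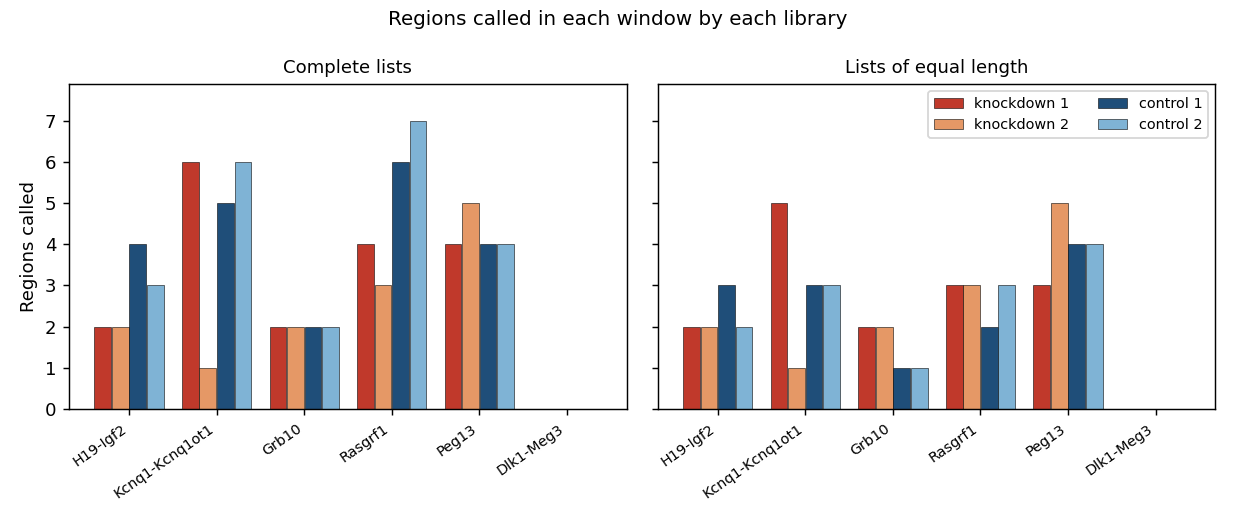
Number of regions called in each window by each library, with the complete lists on the left and with every list limited to its 15309 highest scores on the right. Bars are single libraries; the excess of control calls in the H19-Igf2 and Rasgrf1 windows of the left panel is smaller or gone in the right panel.

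**Figure D3:**
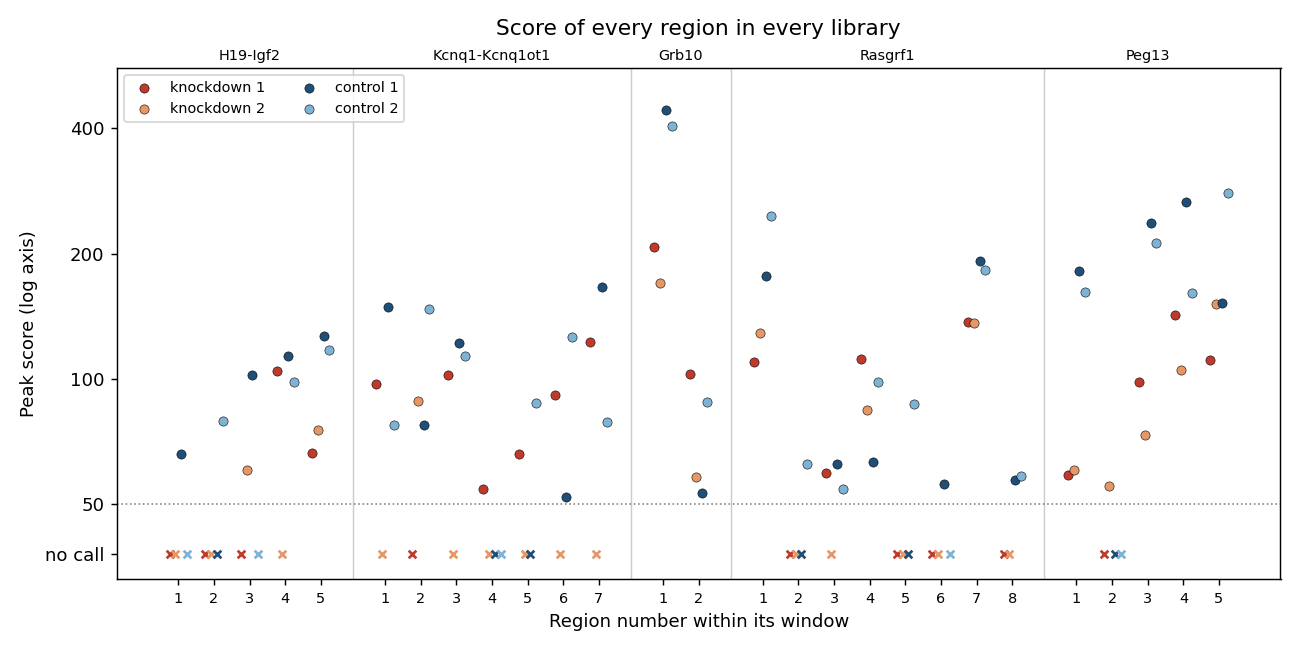
Score of each of the 27 regions in each library on a log axis, numbered from low to high position within its window. Points are single libraries, crosses mark libraries with no call, and the dotted line is the lowest score of the lists, 50. At Grb10 region 1 and Peg13 regions 1 and 3 both knockdown points lie well below both control points. Both knockdown scores lie below both control scores in 62.0% of the 11741 regions of the series called in all 4 libraries.

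At Peg13, the 2 knockdown libraries had a call in each of the 4 regions that the controls called, 2 of them at far lower scores and ranks. Peg13 is a paternally expressed long non-coding RNA inside Trappc9, which encodes a trafficking complex subunit, and next to Kcnk9, which encodes a potassium channel. The first region, chr15:72640362-72641096, scored 58.7 and 60.4 in knockdown replicates 1 and 2, against 181 and 161 in control replicates 1 and 2. The knockdown scores lay just above the lowest score of the lists, and the groups did not overlap. Its percentile rank was 14.8 and 19.5 in the knockdown libraries, against 82.9 and 78.9 in the controls, means of 17.1 ± 3.33 and 80.9 ± 2.82 (SD, n = 2 each). The difference was -63.7 points, far beyond the spread between replicates. Of the 11741 regions called in all 4 libraries, 55 (0.468%) had a difference as low or lower, and so had 27 of 1751 (1.54%) in the same decile of control rank. The 1751 are the 84.3% of the 2078 regions of that decile that kept both knockdown calls. Regions that lost a knockdown call have no such difference, so shares of this kind leave them out and may understate how common a large drop was. The calls of this Peg13 region were 204 bp and 464 bp wide in knockdown replicates 1 and 2, against 731 bp and 703 bp in control replicates 1 and 2. Over the complete lists the median widths were 328 bp and 446 bp in the knockdown, against 483 bp and 507 bp in the control.

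The other Peg13 regions lay 182 kb and more to the right of the first. The region chr15:72853255-72853792 scored 98.6 and 73.5 in the knockdown libraries, against 237 and 212 in the controls, again without overlap. Its percentile rank averaged 52.7 ± 14.8 in the knockdown and 92.6 ± 1.66 in the control (SD, n = 2 each), a difference of -39.9 points. A difference this low or lower was found in 7.00% of all shared regions and in 10.0% of those in the same decile of control rank. Of all regions in that decile, 94.4% kept both knockdown calls and could be counted. The region chr15:72874734-72875509 scored 142 and 105 in the knockdown libraries and 266 and 161 in the controls. The region chr15:72899065-72899824 scored 111 and 152 in the knockdown libraries and 152.1 and 280.5 in the controls. In percentile rank both of these overlapped between groups, with differences of -5.72 and -1.53 points. The remaining region, chr15:72822737-72823257, was called in knockdown replicate 2 alone, at a score of 55.3.

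At Grb10, all 4 libraries called the same pair of neighbouring regions. Grb10 encodes an adaptor of growth factor receptors that restrains growth and is expressed from the maternal copy in most tissues. The stronger region, chr11:11873146-11873962, scored 208 and 169.8 in knockdown replicates 1 and 2, against 443 and 406 in control replicates 1 and 2, the highest scores of any window region in each library. The scores did not overlap between groups, and their means were 189 ± 26.8 in the knockdown and 424 ± 25.8 in the control (SD, n = 2 each). Its percentile ranks of 97.1 and 95.6 in the knockdown libraries lay below the 98.9 and 98.9 in the controls, without overlap. Counted from the highest score, its position was 559.5 and 669 in the knockdown lists, against 261 and 266 in the control lists. The difference of -2.56 points compares with a median of -8.87 points among the 1962 shared regions of the strongest decile. The weaker region, chr11:11874742-11875462, began 780 bp after the end of the first and scored 103 and 58.2 in the knockdown libraries, against 53.3 and 87.9 in the controls. Its percentile rank averaged 40.9 ± 36.3 in the knockdown and 19.6 ± 22.7 in the control (SD, n = 2 each), a difference of 21.3 points. Its groups overlapped, and its rank differed by 51.4 points between the knockdown replicates and by 32.1 points between the control replicates. Shared regions in its decile of control rank had a median difference of 18.8 points, and 43.5% of them reached or passed 21.3 points. No other region followed for 316 kb, an interval that 5.20% of all gaps between neighbouring regions reach.

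Rasgrf1 held both the single region called in the 2 controls and in no knockdown library, and the window region whose rank stood highest relative to the controls. Rasgrf1 encodes a guanine nucleotide exchange factor for Ras and is known to be expressed from the paternal copy in neonatal brain. The region chr9:89868490-89869133 scored 112 and 84.2 in the knockdown libraries, against 63.2 and 98.6 in the controls, so that the scores overlapped. In percentile rank the knockdown libraries stood at 73.2 and 56.5, above both controls at 13.7 and 43.6. The difference was 36.2 points, which 1.75% of all shared regions and 11.8% of those in the same decile of control rank reached or passed. Shared regions of that decile, which make up 26.5% of its regions, stood at a median of 13.3 points. The region chr9:89993595-89994201, called in both controls and in no knockdown library, scored 57.3 and 58.6 in control replicates 1 and 2, near the lowest score. In its decile of control rank, the weakest, 48.2% of the regions of the series had no knockdown call.

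The flanking strong regions of the Rasgrf1 window were called by every library. The region chr9:89721668-89722477 scored 109.8 and 129 in knockdown replicates 1 and 2, against 177 and 247 in control replicates 1 and 2. The region chr9:89971547-89972265 scored 137 and 136 in the knockdown libraries and 192 and 183 in the controls. Its percentile ranks of 86.1 and 89.6 in the knockdown libraries stood above the 85.9 and 85.5 in the controls, by 2.18 points, while its scores were lower in the knockdown. The region chr9:89863832-89864374 scored 59.6 in knockdown replicate 1 and 62.5 and 54.3 in the controls, and had no call in knockdown replicate 2. The other 3 regions of the window were each called in 1 control library, at scores of 56.1 to 87.3.

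In the H19 and Igf2 window, calls clustered in a pair of regions in the right part, and 1 of the pair was called by every library. H19 is a maternally expressed long non-coding RNA, and Igf2 encodes a paternally expressed growth factor. The region chr7:149861473-149862062 scored 66.5 and 75.4 in knockdown replicates 1 and 2, against 127 and 118 in control replicates 1 and 2, without overlap. Its percentile rank averaged 35.5 ± 13.0 in the knockdown and 58.2 ± 1.87 in the control (SD, n = 2 each). The difference of -22.7 points is one that 24.0% of all shared regions reached or exceeded downwards. Its neighbour chr7:149857866-149858496, which ended 2977 bp before it, scored 105 in knockdown replicate 1 and 114 and 98.2 in the controls, and had no call in knockdown replicate 2. In control-rank decile 4, where this neighbour stands, 54.5% of the regions of the series were called in knockdown replicate 2.

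The other 3 regions of the H19 and Igf2 window were called in 1 or 2 libraries. The region chr7:149796404-149796847 was called in knockdown replicate 2 at a score of 60.5 and in control replicate 1 at 102, with no call in knockdown replicate 1 or control replicate 2. The region chr7:149718910-149719183 was called in control replicate 1 at 66.2, and the region chr7:149723628-149724253 in control replicate 2 at 79.2. No library had a call in the next 72.2 kb. Whether the H19 control region lies in that stretch or under a called region was not checked. A region just outside the window, chr7:149900550-149901088, was called in all 4 libraries, with scores of 83 and 169.8 in the knockdown libraries and 117 and 81.7 in the controls; its centre lies 819 bp beyond the edge. Just inside the edge of another window, the last Peg13 region has its centre 556 bp from the boundary.

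At Kcnq1 and Kcnq1ot1, knockdown replicate 1 called 6 of the 7 regions and knockdown replicate 2 called 1, so that no region was shared by all libraries. Kcnq1 encodes a potassium channel subunit, and Kcnq1ot1 is a paternally expressed RNA that starts inside Kcnq1 on the opposite strand and is known to silence neighbouring genes such as Cdkn1c. All 5 regions called in both controls had a call in exactly 1 knockdown library, where 28.7% of such regions in the series do. These regions stood in deciles 5 and 3 of control rank. In those deciles 54.0% and 34.1% of the regions of the series had both knockdown calls, and 10.3% and 24.6% had none. The rest had exactly 1. The region chr7:150272053-150272716 was the one called in knockdown replicate 2, at a score of 88.7, with no call in knockdown replicate 1 and scores of 77.6 and 147 in control replicates 1 and 2. On chromosome 7 as a whole, 78.6% of the 1387 regions called in both controls were called in knockdown replicate 1 and 61.6% in knockdown replicate 2.

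The control replicates themselves differed at Kcnq1 and Kcnq1ot1. The region chr7:150259028-150259510 scored 97.3 in knockdown replicate 1, against 149 and 77.6 in control replicates 1 and 2. The region chr7:150339682-150340172 scored 123 in knockdown replicate 1, against 166 and 78.8 in the controls. The region chr7:150336905-150337540 scored 91.5 in knockdown replicate 1, against 52.2 and 126 in the controls. Thus control replicate 1 was the higher in 2 of these regions and control replicate 2 in the other. In score, knockdown replicate 1 lay between the controls in all 3. In percentile rank it lay between them in 2, but above both at chr7:150339682-150340172, at 80.0 against 77.8 and 28.5. The percentile ranks of the controls differed by 43.5 to 59.3 points in 4 of the 5 regions, gaps that 7.16% to 1.39% of the 20780 regions called in both controls reach. The fifth, chr7:150280488-150281150, scored 102 in knockdown replicate 1 and 122 and 114 in the controls. Its percentile rank went the other way, at 66.2 in knockdown replicate 1 against 56.8 and 54.4 in the controls.

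The remaining regions of that window had few calls. The region chr7:150324664-150325136 was called in knockdown replicate 1 at 66.1 and in control replicate 2 at 87.5, and chr7:150300782-150300984 in knockdown replicate 1 alone at 54.3. All 7 regions lay in the left part of the window, and after the last of them no library had a call for 310 kb, up to position 150649715. An interval that long is reached by 5.32% of all gaps between neighbouring regions.

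At Dlk1 and Meg3, 0 of the 4 libraries had a peak in the 250 kb window on chromosome 12. The nearest region to the left, chr12:110552989-110553432, was called at a score of 55 in knockdown replicate 1 and at 86.4 and 107 in control replicates 1 and 2, and not in knockdown replicate 2. To the right, the nearest call of any library began at 111269495, in control replicate 2 alone, at 56.4. The stretch without any region was 716 kb, against a median gap of 28.8 kb, and 1.86% of all gaps are as long or longer. These long gaps make up 30.5% of the span of the peaks on the chromosomes, and 34.1% of 10270 adjoining 250 kb bins of the genome held no region. The absence is of calls that reach the lowest score, and weaker binding was not detectable in these lists.

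Over the 10 window regions called in all 4 libraries, scores of both knockdown libraries lay below both controls in 8 and overlapped in 2, and none lay above. The last Peg13 region is among the 8 by a narrow margin, with 151.7 in knockdown replicate 2 against 152.1 in control replicate 1. In the series 62.0% of the 11741 shared regions had both knockdown scores below both control scores and 1.93% above. In percentile rank, both knockdown libraries lay below both controls in 4 of the 10 (28.9% in the series) and above in 2 (11.1% in the series). These 4 were the regions numbered 1 and 3 at Peg13, the stronger Grb10 region and the shared H19 and Igf2 region, and the 2 were at Rasgrf1. The rank difference of the 10 ran from -63.7 to 36.2 points with a median of -4.14, beside a median of -7.26 over all shared regions. Without knockdown replicate 2 the median was 3.77 points, over the 16 regions then called in every library. The series median without that library was not computed, and the -7.26 points are not its counterpart.

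**Figure D4:**
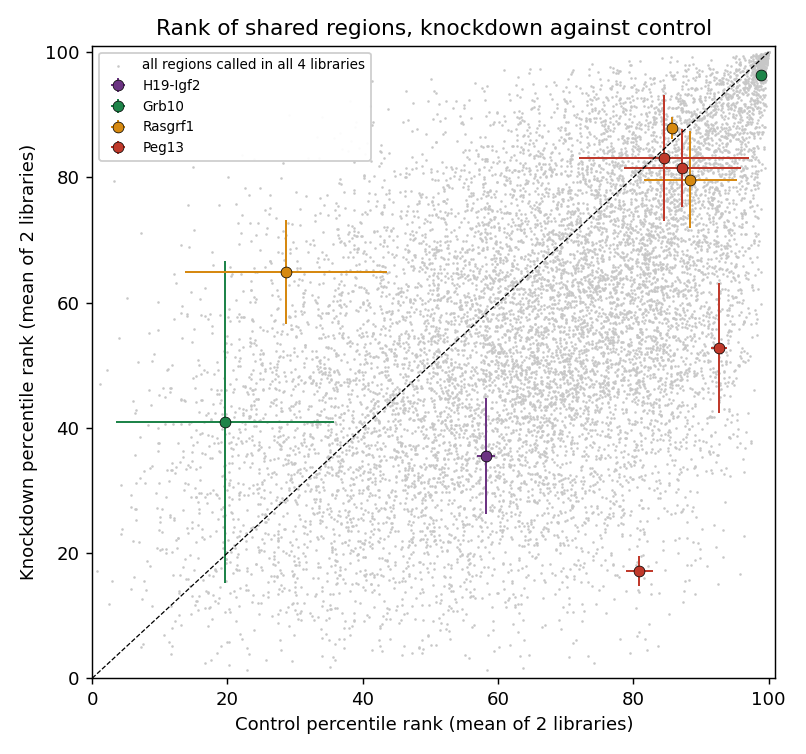
Percentile rank by score of the 11741 regions called in all 4 libraries (grey) and of the 10 window regions among them (coloured), as the mean of the 2 knockdown libraries on the y axis and of the 2 control libraries on the x axis. Bars span the 2 replicates and the dashed line marks equal rank; 2 Peg13 regions lie far below the line, at knockdown means of 17.1 and 52.7, and 3 regions lie above it, 1 at Rasgrf1 at 64.9, 1 at Grb10 at 40.9 and 1 at Rasgrf1, close to the line, at 87.9.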

How the data were processed

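CTCF ChIP-seq of 4 WEHI-231 libraries was used as 1 deposited peak list per library. BWA, HOMER and mm9 stand without version or role in the submitters' processing notes, and the deposited peak names carry the word MACS. The sources used here give neither the caller's version nor any use of an input library. The authors' score per peak was read from the deposited column: its lowest value of 50 is what -10 times the log10 of a p of 1e-05 gives. Start and end positions are printed as deposited. Overlapping peaks (1 bp) were merged, and the highest score of a library in a region was used. Percentile ranks were taken within each list. The deciles of control rank divide the 20780 regions called in both controls. The members and lists were chosen with earlier results of these data known. Every window region was to be named or counted, with values for the strongest of each window, those of 1 group alone and those whose ranks do not overlap. The lists hold no tag counts, so no count test was made. Merging was tested on simulated data. RefSeq tables of GRCm38 served for names, gene order and promoters only. Python 3.11.15, numpy 2.4.6, pandas 2.3.3, scipy 1.17.1 and matplotlib 3.10.9 were used. Alternatives were the overlap, merging distance, score, list length, window size, libraries left out and the replicate block.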

Additional observations from a re-analysis of the deposited data

How the results depend on the processing

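The lists give calls above a lowest score and no depth, which limits every absent call to that score. The difference in called regions, -6 (knockdown minus control), was 1 with lists of equal length, which use fewer control peaks by construction, -4.5 with a score of at least 100, -8 with windows widened by 50 kb, -3 with windows narrowed by 25 kb, and between -8.5 (without knockdown replicate 1) and -3.5 (without knockdown replicate 2) with a library left out. Regions called in both controls and no knockdown library numbered 1, and 2 with reciprocal overlap of 50%, 3 with a score of at least 100, 0 with equal list length and 0 with windows narrowed by 25 kb. Leaving out a library, which loosens the definition, gave values from 2, when knockdown replicate 2 was left out, to 7, when knockdown replicate 1 was, with 4 without control replicate 1 and 3 without control replicate 2. The reverse class, 0, held 1 region with equal list length and 0 to 1 with a library left out (1 without knockdown replicate 1 and 1 without knockdown replicate 2). Regions called in all libraries, 10, numbered 8 with reciprocal overlap of 50%, 5 with a score of at least 100 and 7 with equal list length. They numbered 15 with windows widened by 50 kb and 7 with windows narrowed by 25 kb. With a library left out they numbered 10 to 16, the highest without knockdown replicate 2. The median rank difference of -4.14 points was -2.04 with reciprocal overlap, -22.93 with the stricter score, -2.29 with equal list length, -1.53 with windows widened by 50 kb and -2.56 with narrowed windows. It was -8.30 (without control replicate 1) to 3.77 (without knockdown replicate 2) with a library left out, with -2.26 without control replicate 2. On the log2 score scale it was -0.77, beside -0.60 over all shared regions. The cause was not tested where no construction is named. Merging within 500 bp moved none of these values. With the replicate block the difference in calls was -6 (-3 and -9 within replicates 1 and 2) and the median rank difference -4.14; the deviations of same-numbered libraries over all shared regions had a correlation of 0.0126, so the numbers do not show a pairing.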

Other observations

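To the right of the Kcnq1 and Kcnq1ot1 window, the next 300 kb of chromosome 7 held 9 regions, of which 8 were called in both controls and 4 of those in no knockdown library. These 4 were chosen for mention after their values were seen. They scored 73.2 and 62.9 (chr7:150652063-150652743), 67.3 and 118 (chr7:150666369-150666828), 110.4 and 119 (chr7:150769877-150770363), and 65.3 and 135 (chr7:150787570-150788075) in control replicates 1 and 2. Between them lay a pair of regions called in every library, chr7:150691796-150692350 with 95 and 69.8 in the knockdown libraries and 149 and 119 in the controls, and chr7:150692585-150693200 with 148 and 100.2 in the knockdown libraries and 137 and 247 in the controls. In the remaining 11 flanks of the windows, each as long as its window, 0 of 36 distinct regions called in both controls had no call in either knockdown library. The 12 flanks together held 47 such regions, with a region counted in each flank that holds it, and 4 (8.51%) had no knockdown call. Over the whole series 14.8% had none. The right flank of the Kcnq1 and Kcnq1ot1 window was set apart from the others after its values were seen. The control ranks of the 36 were not compared. The 4 regions stood, in the order given, in deciles 1, 3, 5 and 4 of control rank. In these deciles 48.2%, 24.6%, 10.3% and 17.3% of the regions of the series had no knockdown call.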
